A study of Homo sapiens with 8 samples.

Results

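Kruppel-like factors (KLFs) are transcription factors that bind GC-rich and CACCC-containing DNA through a shared set of zinc fingers. Their other ends differ, so that some recruit histone acetyltransferases and act mostly as activators while others recruit the CtBP or Sin3A corepressors, and several compete with each other and with SP factors for the same DNA. Many are induced within hours by serum, hormones, flow or stress, and in epithelial and mesenchymal cells they are known for roles in proliferation, differentiation and metabolism. The 10 genes described here (KLF2, KLF3, KLF4, KLF5, KLF6, KLF7, KLF9, KLF10, KLF11 and KLF13) were taken by symbol from a table of 21077 genes, and all 10 were among the 15570 genes that passed the filter on low values and were tested.

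RNA was sequenced from Hs578T, a breast cancer cell line without estrogen receptor and with a mesenchymal character, kept for 48 h at a low (5 mM) or a high (25 mM) level of glucose, with 4 libraries in each group. Per the study's methods, cells were kept without serum and first adapted to low glucose, and mannitol as an osmotic control was used in some experiments only. The study reports that adding mannitol made no difference to the phenotypes examined, with proliferation and migration shown. The labels name no mannitol here, so glucose and osmolarity cannot be told apart. All 8 libraries come from 1 cell line. Nothing says that the replicates were started independently, so each p value rests on the scatter among 8 libraries, and that scatter may be technical.

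Values are normalized CPM, the counts of a gene relative to the scaled size of its library. Libraries held an estimated 10244900 to 11956677 counts, so that 1 count was worth 0.0867 to 0.118 CPM, and intervals from counts cover counting error only. Pairs of libraries differed more between groups (chi-square per gene from 102 to 130) than within groups (1.58 to 5.83), and none were alike within sampling noise. All 5 mesenchymal markers were measured (VIM, FN1, CD44, SPARC and CDH2, summed CPM from 54730 to 58970 in low and from 33100 to 34290 in high glucose). FN1 made up most of this sum in both groups, so the sum does not show how the other markers moved. ESR1 and PGR, which define estrogen receptor-positive cells, summed to at most 0.360 CPM. Of the epithelial markers, EPCAM was at 0, CDH1 and KRT19 were below 1 CPM, and KRT8 and KRT18 made up nearly all of the sum (274 to 291 CPM in low and 110 to 128 CPM in high glucose). Of the endothelial markers, CDH5 was at 0 and the list summed to 3.14 to 4.05 CPM in low and 7.22 to 8.93 CPM in high glucose. Immune markers summed to 180 to 189 CPM in low and 92.0 to 96.6 CPM in high glucose, nearly all of it CD68, with LYZ at 0, and the adipocyte markers measured stayed at or below 0.477 CPM. The part of these marker shifts in the results below was not tested. In RNA from a whole culture, a change in the share of cells that express a gene and a change in the level per cell cannot be told apart.

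KLF and SP proteins bind GC-rich sites that are common in promoters. The 250 bases upstream of the start of the reference transcript (RefSeq windows, GRCh38.p14) are shown for 3 activator-group genes that moved differently: KLF4, which fell most in that group, KLF2, which fell and was scarce, and KLF5, which rose. The windows lie at chr9:107489770-107490019 on the minus strand (KLF4), chr19:16324576-16324825 on the plus strand (KLF2) and chr13:73058755-73059004 on the plus strand (KLF5), and each is printed from 5′ to 3′ in the direction of the gene. The KLF5 window lies inside the annotated gene interval, because the reference transcript begins downstream of the first annotated start. Capitals mark every match to any of the motifs searched. The GC box was read as GGGCGG or its reverse complement CCGCCC. The CACCC box has GGGTG as its reverse complement. The E-box was read as CACGTG, the cyclic AMP response element as TGACGTCA, and the MEF2-type motif as CTA and TAG on either side of 4 letters that are all A or T.
KLF4: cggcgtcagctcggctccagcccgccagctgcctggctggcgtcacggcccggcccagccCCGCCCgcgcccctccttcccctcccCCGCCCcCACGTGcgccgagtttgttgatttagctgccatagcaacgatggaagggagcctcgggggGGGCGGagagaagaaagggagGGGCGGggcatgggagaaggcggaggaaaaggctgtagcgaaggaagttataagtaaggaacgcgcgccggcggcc
KLF2: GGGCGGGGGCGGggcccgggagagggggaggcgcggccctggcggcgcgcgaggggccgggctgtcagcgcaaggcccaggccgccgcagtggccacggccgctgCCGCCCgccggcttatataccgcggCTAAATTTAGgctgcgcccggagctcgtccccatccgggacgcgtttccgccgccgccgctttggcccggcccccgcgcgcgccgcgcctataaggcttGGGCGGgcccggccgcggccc
KLF5: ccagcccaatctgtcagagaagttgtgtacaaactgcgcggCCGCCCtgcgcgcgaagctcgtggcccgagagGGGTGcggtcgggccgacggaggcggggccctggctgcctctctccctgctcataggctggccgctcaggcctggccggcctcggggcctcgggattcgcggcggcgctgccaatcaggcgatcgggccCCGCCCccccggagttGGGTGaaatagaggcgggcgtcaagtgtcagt

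The KLF4 window held 4 GC boxes and 1 E-box, which began at position -157 (counted back from the start) and lay close to a GC box on its 5′ side. The KLF2 window held 4 GC boxes and 1 MEF2-type motif at -120, and the KLF5 window held 2 GC boxes and 2 CACCC boxes. GC content was 69.2% for KLF4, 80.0% for KLF2 and 70.8% for KLF5. Among the 7 members whose window began at the start of the reference transcript (KLF2, KLF4, KLF5, KLF6, KLF7, KLF9 and KLF13), GC boxes occurred in 5 and CACCC boxes in 3, against 42.6% and 54.7% of all 35116 promoter windows of this length. The E-box was found in 2 (KLF4 and KLF6, 6.35% of all windows), the MEF2-type motif in 1 (KLF2, 0.515% of all windows) and the cyclic AMP response element in 0 (1.65% of all windows). Both strands were searched, matches of 2 motifs could overlap, and a match describes letters and not binding. The motifs were chosen after the windows were seen, so these shares do not measure how unusual a match is. The KLF9 window was the exception in composition, with a GC content of 32.4% and none of these motifs.

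Under high glucose, 6 of the 10 factors fell (KLF2, KLF3, KLF4, KLF7, KLF10 and KLF11), 3 rose (KLF5, KLF6 and KLF9) and KLF13 did not pass the test (limma on log2(CPM + 1), FDR under 0.05 over all genes tested). A call was common in this experiment: 72.9% of all genes tested passed, 35.7% as higher and 37.2% as lower, so 9 of 10 is read against that share. The values of the 2 groups did not overlap for these same 9 members, against 66.7% of all genes. A change of at least 1 on the log2(CPM + 1) scale was reached by KLF4 and KLF11, 2 of 10, against 17.1% of all genes. The median change of the 10 was -0.71 (from -2.42 to 0.68), beside a median of -0.00031 over all genes. When each library was rescaled to the same total, the median of all genes moved by 0.19 and the split of calls went from 5553 higher and 5797 lower to 7327 higher and 4349 lower, while the 9 calls of KLF members kept their direction.

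**Figure D1:**
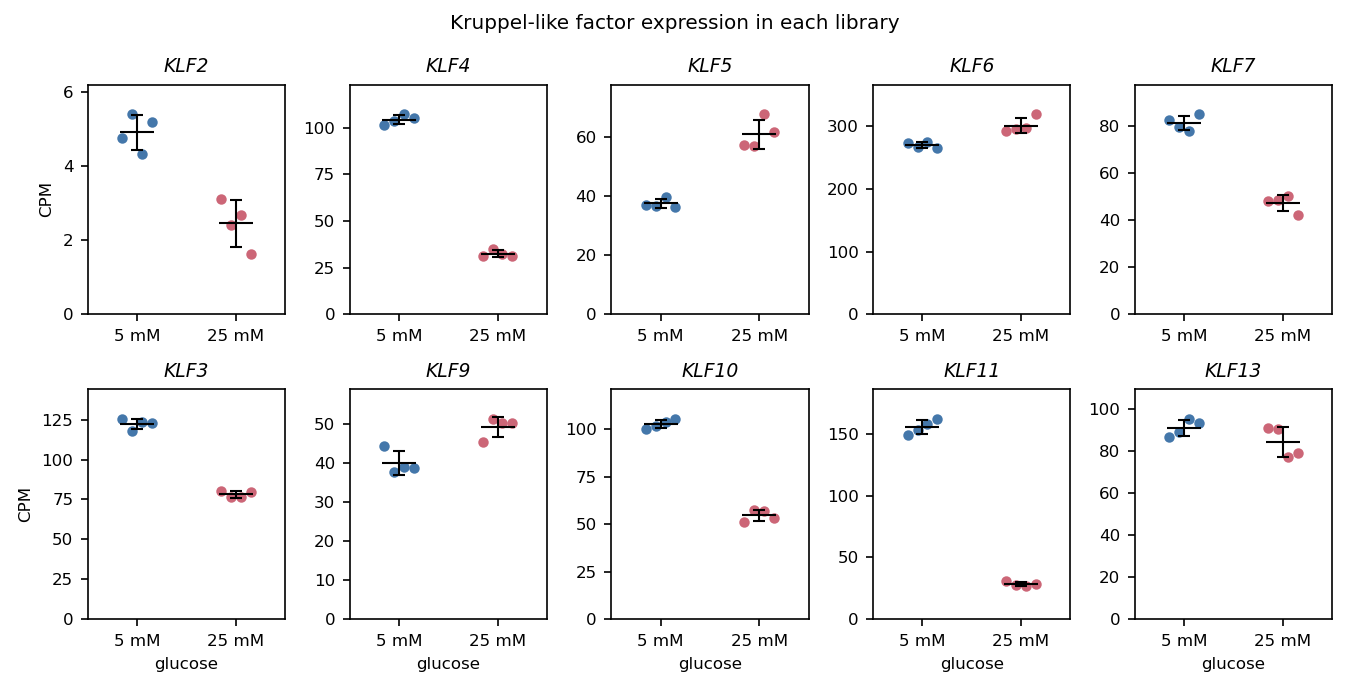
Expression of the 10 Kruppel-like factors in CPM (vertical axes, each from 0) in the 4 low-glucose (5 mM) and 4 high-glucose (25 mM) libraries. Points are libraries and bars are mean ± SD (n = 4). The groups overlap only for KLF13, and KLF11 shows the widest gap, with 149 to 162 CPM in low and 26.8 to 30.8 CPM in high glucose.

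The activator group, whose members bind the acetyltransferases p300, CBP or PCAF, split in direction. KLF4, known from epithelial differentiation and as a reprogramming factor (ENSG00000136826.15, chr9:107484852-107489769), had 101, 104, 107 and 105 CPM in low glucose and 31.4, 35.1, 32.3 and 31.3 CPM in high glucose. Every high-glucose library lay far below every low-glucose library, and the mean was 3.21 times higher in low glucose (104 ± 2.45 against 32.5 ± 1.78 CPM, SD, n = 4). The log2 fold change of KLF4 was -1.66 ± 0.0510 (SE, adjusted p = 2.98e-13), larger in size than that of 96.4% of all genes tested.

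KLF2, a factor of quiescent endothelium and T cells that is related to KLF4 (ENSG00000127528.5, chr19:16324826-16328685), was scarce, with 4.76, 5.40, 4.33 and 5.19 CPM in low glucose and 3.12, 2.41, 2.67 and 1.62 CPM in high glucose. The highest library in high glucose lay below the lowest in low glucose, but these values rest on only 18 to 48 estimated counts per library. The replicate spread was of the size that counting alone gives, with a coefficient of variation of 9.60% against 15.1% from counting in low glucose and 25.6% against 19.4% in high glucose. KLF2 fell by 0.79 on the log2(CPM + 1) scale (SE 0.153, adjusted p = 2.42e-04). For so low a gene the size of the change depends on the pseudocount, and it was -1.01 with 0.1 CPM and -0.41 with 5 CPM.

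KLF7, a relative of KLF6 known from neuronal development (ENSG00000118263.15, chr2:207074137-207173851), fell as well. Its values were 82.4, 79.7, 78.0 and 84.9 CPM in low glucose and 47.9, 48.4, 50.1 and 42.2 CPM in high glucose. The groups were well apart and the log2 fold change was -0.77 ± 0.0571 (SE, adjusted p = 6.38e-09).

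KLF5 and KLF6 moved the other way. KLF5, which promotes proliferation in basal epithelia (ENSG00000102554.14, chr13:73054976-73077538), had 37.1, 36.8, 39.7 and 36.4 CPM in low glucose and 57.4, 57.0, 67.6 and 61.7 CPM in high glucose. All 4 high-glucose libraries exceeded all 4 low-glucose libraries, and KLF5 had the largest increase of the 10 members (log2 fold change 0.68 ± 0.0616, SE, adjusted p = 6.87e-08).

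KLF6, a widely expressed factor induced by injury (ENSG00000067082.15, chr10:3775996-3785209), had 274, 267, 274 and 265 CPM in low glucose and 292, 296, 297 and 319 CPM in high glucose. The groups were separate but close, and the high-glucose library of replicate 4 stood above the other 3. The log2 fold change was 0.15 ± 0.0364 (SE, adjusted p = 0.00135), a size that exceeded only 17.1% of all genes tested. KLF6 passed the test under all alternatives run, but its size rests on scaling, since it was 0.29 after quantile normalization and 0.40 when libraries were rescaled to the same total.

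KLF3, which represses through CtBP and is known from blood and adipose cells (ENSG00000109787.13, chr4:38664199-38701517), was the only member of its group in the set. It had 125, 118, 123 and 123 CPM in low glucose and 80.3, 76.6, 76.4 and 79.3 CPM in high glucose. Both groups were tight and wide apart, with a log2 fold change of -0.64 ± 0.0408 (SE, adjusted p = 1.12e-09), which became -0.40 after rescaling to the same total.

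Of the factors that bind Sin3A, KLF11 fell most, KLF10 fell, KLF9 rose and KLF13 did not pass. KLF11, a TGF-β-inducible factor linked to insulin gene regulation in the pancreas (ENSG00000172059.11, chr2:10043550-10054836), had 149, 153, 158 and 162 CPM in low glucose and 30.8, 27.3, 26.8 and 28.5 CPM in high glucose. The mean was 5.50 times higher in low glucose (156 ± 5.62 against 28.3 ± 1.77 CPM), the strongest shift of the 10. Its log2 fold change of -2.42 ± 0.0527 (SE, adjusted p = 7.92e-15) was larger in size than that of 99.4% of all genes tested.

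KLF10, the closest relative of KLF11 and an early response gene of TGF-β (ENSG00000155090.15, chr8:102648784-102655725), is also known as a target of the glucose-sensing factors ChREBP and MondoA. It had 100.1, 101.5, 103.8 and 105.1 CPM in low glucose and 51.3, 57.4, 56.8 and 53.1 CPM in high glucose. High-glucose libraries thus stood at 53.3% of the low-glucose mean, and the log2 fold change was -0.90 ± 0.0482 (SE, adjusted p = 1.47e-10).

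KLF9, a gene induced by glucocorticoid and thyroid hormone (ENSG00000119138.4, chr9:70384604-70414657), had 44.5, 37.9, 39.0 and 38.7 CPM in low glucose and 45.5, 51.3, 50.3 and 50.3 CPM in high glucose. The groups came close to each other, since low-glucose replicate 1 was high and high-glucose replicate 1 was low within their groups. KLF9 rose by 0.30 ± 0.0634 (SE, adjusted p = 5.84e-04) on the log2 scale, and by 0.54 when libraries were rescaled to the same total.

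KLF13, known for the control of chemokine CCL5 in T cells (ENSG00000169926.11, chr15:31326835-31435665), had 86.8, 89.1, 95.03 and 93.4 CPM in low glucose and 90.7, 90.2, 77.2 and 78.8 CPM in high glucose. High-glucose replicates 1 and 2 lay within the range of low glucose and replicates 3 and 4 lay below it. The log2 fold change was -0.11 ± 0.0582 (SE, 95% interval from -0.24 to 0.01, adjusted p = 0.0898), a size above that of 12.8% of all genes tested. The adjusted p ran from 0.0348 to 0.775 over the alternatives. KLF13 passed as lower without high-glucose replicate 1 (-0.15, adjusted p = 0.0348) or replicate 2 (-0.15, adjusted p = 0.0398), and its sign turned when libraries were rescaled to the same total (0.13, adjusted p = 0.0548). High-glucose libraries 1 and 2, and libraries 3 and 4, were also more alike over all genes (chi-square per gene 1.61 and 2.18) than libraries across these pairs (3.23 to 5.83), and the part of this in the KLF13 values was not tested.

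**Figure D2:**
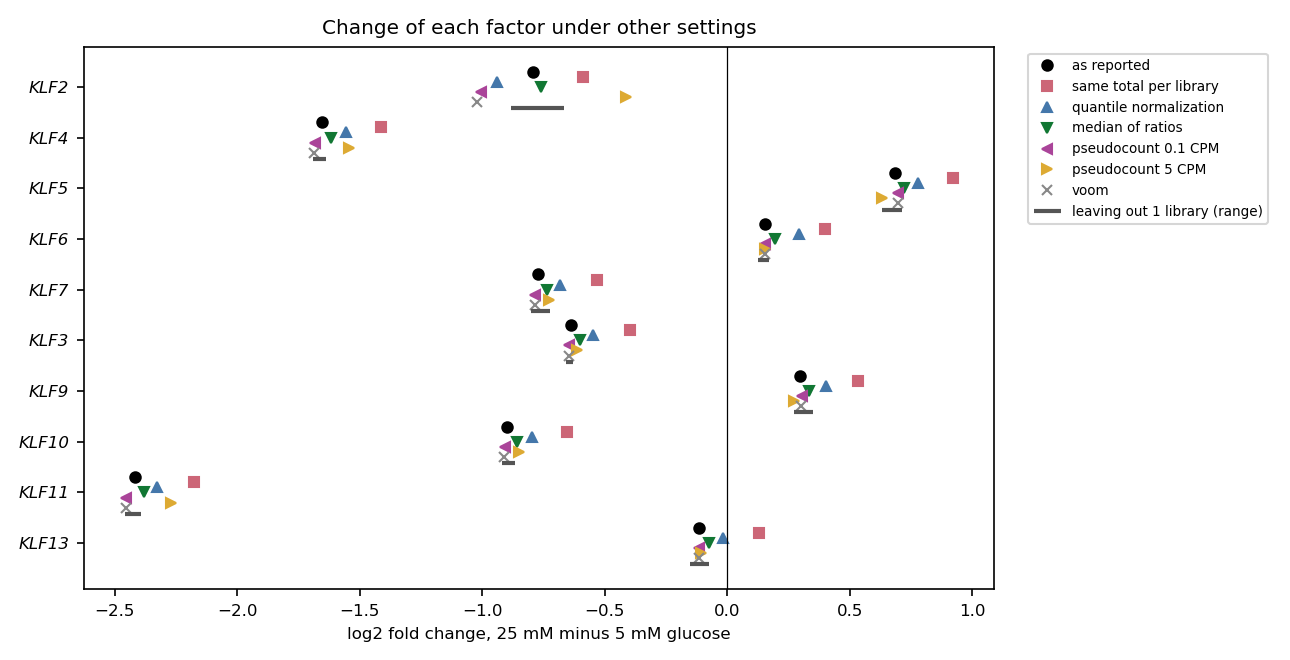
Log2 fold change (25 mM minus 5 mM glucose) of each Kruppel-like factor as reported (black circles) and under 6 other settings, with the range over fits that leave out 1 library (grey bars). KLF13 crosses 0 when libraries are rescaled to the same total (0.13), KLF2 shifts most with the pseudocount (-1.01 with 0.1 CPM and -0.41 with 5 CPM), and the other 8 genes stay on their side of 0.

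Levels of different genes were compared per length of the reference transcript (CPM per kilobase), as a description with no test. In low glucose the order was KLF6 (58.8 ± 1.001 CPM per kilobase, SD, n = 4), KLF11 (38.6 ± 1.39), KLF4 (35.6 ± 0.835), KLF10 (35.2 ± 0.770), KLF3 (21.9 ± 0.549), KLF13 (13.3 ± 0.557), KLF5 (11.2 ± 0.440), KLF7 (9.71 ± 0.361), KLF9 (7.69 ± 0.581) and KLF2 (1.75 ± 0.167). The libraries of KLF4 and KLF10 overlapped, and those of all other neighbours did not. In high glucose KLF6 remained first with 65.5 ± 2.64 CPM per kilobase, far above the next gene, KLF10, with 18.8 ± 1.01. KLF5 followed with 18.2 ± 1.47, then KLF3 (14.0 ± 0.351), KLF13 (12.3 ± 1.06), KLF4 (11.1 ± 0.607), KLF9 (9.49 ± 0.503), KLF11 (7.02 ± 0.439), KLF7 (5.64 ± 0.409) and KLF2 (0.871 ± 0.223). Here KLF10 overlapped KLF5 and KLF13 overlapped KLF4. KLF11 thus went from rank 2 to rank 8 and KLF4 from rank 3 to rank 6, while KLF5 went from rank 7 to rank 3. The lengths are those of 1 reference transcript per gene, and the transcripts used by these cells were not measured.

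**Figure D3:**
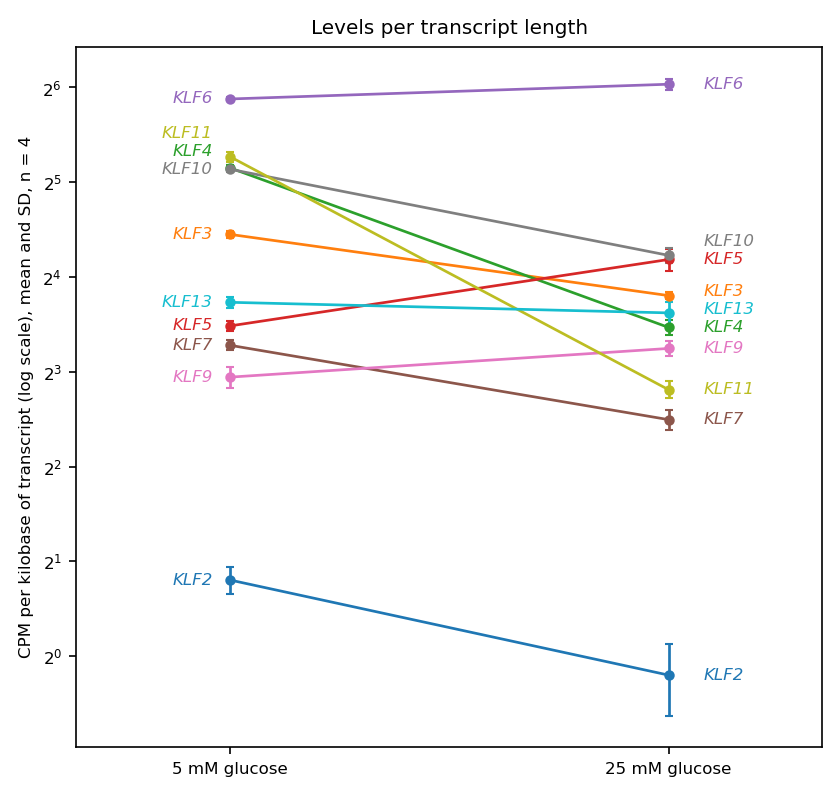
Level of each Kruppel-like factor per kilobase of its reference transcript (log axis) in low and high glucose, mean and SD of 4 libraries. KLF6 is the highest and KLF2 the lowest in both groups, and the line of KLF11 falls from 38.6 to 7.02 CPM per kilobase and crosses those of 6 other factors.

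Related members were set against each other within each library, where the scaling factor of the library has little effect. KLF10 and KLF11, the TGF-β-inducible pair, shifted most, and their order per kilobase was exchanged between the groups (above). The difference of log2(CPM + 1), KLF10 minus KLF11, was -0.57, -0.59, -0.61 and -0.62 in low glucose and 0.72, 1.05, 1.06 and 0.88 in high glucose. The difference was below 0 in all low-glucose libraries and above 0 in all high-glucose libraries, and the shift was 1.52 ± 0.0804 (SE, 2-sided exact permutation p = 0.0286, adjusted p = 0.0381 over 4 pairs). With 4 libraries a side, no smaller p can be reached. The pairs were chosen with earlier results of these data known, and each shift is made of member changes already given above. The p values of the pairs therefore describe these shifts and add no independent evidence.

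KLF6 gained on KLF7, from a difference of 1.72 ± 0.0690 (SD, n = 4) in low to 2.65 ± 0.159 in high glucose, with no overlap (shift 0.93 ± 0.0868, SE, exact permutation p = 0.0286, adjusted p = 0.0381). The highest of these values, 2.89, belonged to high-glucose replicate 4, where KLF6 was highest and KLF7 lowest. KLF2 minus KLF4 moved from -4.16 ± 0.133 to -3.30 ± 0.280 (shift 0.86 ± 0.155, SE, exact permutation p = 0.0286, adjusted p = 0.0381), so KLF4 fell more than KLF2 on this scale. For KLF9 and KLF13 the values overlapped, with -0.95, -1.21, -1.26 and -1.25 in low glucose and -0.98, -0.80, -0.61 and -0.64 in high glucose. Their shift of 0.41 ± 0.114 did not pass (SE, exact permutation p = 0.0571, adjusted p = 0.0571).

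**Figure D4:**
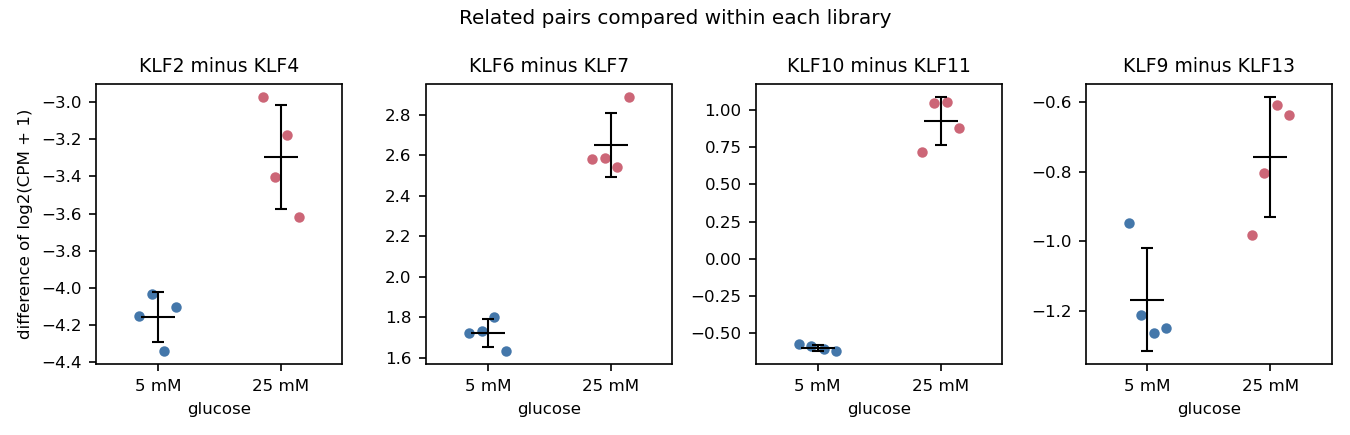
Difference of log2(CPM + 1) between 2 related factors within each library (vertical axes, with a separate range for each pair and not starting at 0), for low and high glucose. Points are libraries and bars are mean ± SD (n = 4). The KLF10 minus KLF11 difference passes from below 0 (-0.60 ± 0.0205) to above 0 (0.92 ± 0.160), and only the KLF9 minus KLF13 values overlap.

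The rest of the family and the SP factors, which share its DNA sites, were examined from lists of related genes. Of 8 other KLF genes, 4 were tested. KLF17, known from the early embryo, passed the filter only through the high-glucose group, which fixes its direction. Of the other 3, 1 was higher and 2 lower (median log2 fold change -0.38, against 0.11 with KLF17). Over all genes, 35.7% were higher and 37.2% lower. KLF16, a Sin3A-binding repressor, fell from 97.1 ± 6.99 to 27.9 ± 2.13 CPM (log2 fold change -1.77, adjusted p = 2.07e-12), and KLF12, a CtBP-binding repressor, rose from 32.8 ± 3.98 to 50.2 ± 1.97 CPM (0.61, adjusted p = 2.98e-06). KLF17 had 1 estimated count in low and 42 in high glucose, a ratio of 34.7 with a counting interval (95%, exact) from 5.90 to 1404, and its log2 fold change of 0.94 became 3.14 with a pseudocount of 0.1 CPM and 0.25 with 5 CPM. KLF15, a metabolic regulator of liver and muscle, was at 1.93 ± 0.345 and 1.249 ± 0.299 CPM with overlapping groups, and its adjusted p of 0.0348 ran from 0.00354 to 0.173 over the alternatives, and its call was lost under 9 of them. KLF8 did not exceed 0.450 CPM, KLF14 was listed at 0, and KLF1 and KLF18 were not analysed here.

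Of 9 SP genes, 5 were tested, and 4 fell and none rose (median -0.49, against a background of 37.2% of all genes lower). SP1, the ubiquitous member, fell from 162 ± 9.04 to 109 ± 5.59 CPM (-0.57, adjusted p = 4.68e-08). SP3, which is likewise ubiquitous and can activate or repress, fell from 158 ± 6.45 to 116 ± 4.95 CPM (-0.44, adjusted p = 2.22e-07). SP4 (-0.49, adjusted p = 7.83e-05) and SP2 (-0.49, adjusted p = 1.67e-04) fell by like amounts. With libraries rescaled to the same total, these changes shrank to -0.32 for SP1, -0.20 for SP3, -0.26 for SP4 and -0.26 for SP2, and all 4 still passed. SP6 had 1.43 ± 0.306 and 1.06 ± 0.328 CPM and did not pass (-0.25, adjusted p = 0.177). SP5 and SP9 stayed under the filter, and SP7 and SP8 were not analysed here.

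**Figure D5:**
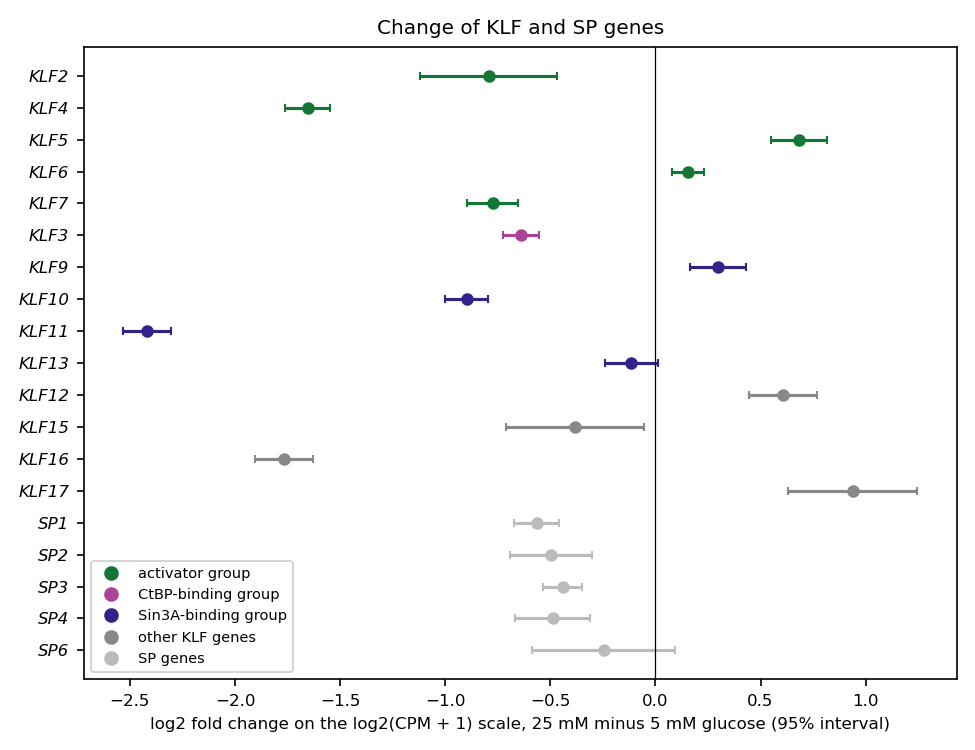
Log2 fold change (25 mM minus 5 mM glucose, on the log2(CPM + 1) scale) with 95% interval for the 10 factors, 4 other KLF genes and 5 SP genes that were tested. KLF11 (-2.42), KLF16 (-1.77) and KLF4 (-1.66) lie farthest to the left, KLF5 (0.68) and KLF12 (0.61) lie to the right, while the position of KLF17 depends on the pseudocount (3.14 with 0.1 CPM and 0.25 with 5 CPM). The intervals of KLF13 and SP6 cross 0.

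Among 10 cofactors, 4 rose, 3 fell and 3 did not pass (median 0.08), where 35.7% of all genes rose and 37.2% fell. The acetyltransferases that serve the activator group rose: KAT2B, which encodes PCAF, from 17.0 ± 0.842 to 60.2 ± 4.43 CPM (log2 fold change 1.77, adjusted p = 3.28e-12), EP300 from 143 ± 2.02 to 245 ± 5.84 CPM (0.77, adjusted p = 2.00e-11) and CREBBP by 0.41 (adjusted p = 3.34e-07). The deacetylase HDAC1 rose from 61.1 ± 2.34 to 127 ± 2.76 CPM (1.04, adjusted p = 7.78e-12). HDAC2 (0.05, adjusted p = 0.33) and HDAC3 (-0.11, adjusted p = 0.057) did not pass. The corepressor scaffold SIN3A, which KLF9, KLF10, KLF11 and KLF13 bind, fell from 116 ± 6.81 to 62.0 ± 3.37 CPM (-0.90, adjusted p = 4.54e-10), and CTBP1, a partner of KLF3, fell by 0.90 (adjusted p = 3.36e-08). CTBP2, also on this list, did not pass (log2 fold change 0.11, adjusted p = 0.067). Rescaling to the same total moved the median of all genes by 0.19, so the results of CTBP2, HDAC2 and HDAC3 may rest on the scaling. SIN3B fell by 0.38 (adjusted p = 9.60e-05). CREBBP, CTBP1, CTBP2, SIN3B, HDAC2 and HDAC3 were added to the genes named after their values were seen. Of 6 genes of KLF turnover, mostly ubiquitin ligase components, 2 rose, 2 fell and 2 did not pass (median 0.07), against the same shares. The ligases SIAH1 (-0.88, adjusted p = 4.22e-08), which degrades KLF10, and STUB1 (-0.89, adjusted p = 9.03e-08) fell, while SMURF1 rose (0.23, adjusted p = 7.44e-04, and 0.47 after rescaling to the same total). VHL, at 41.5 ± 2.72 and 46.9 ± 2.18 CPM, passed at 0.17 (adjusted p = 0.0169, and 0.41 after rescaling to the same total) but not without low-glucose replicate 1 (adjusted p = 0.0592) or high-glucose replicate 4 (adjusted p = 0.0520).

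Of 16 genes known to act upstream of KLF genes, 15 were tested, 4 rose, 9 fell and 2 did not pass (median -0.20). Over all genes tested, 35.7% were higher and 37.2% lower, which is also the background for the glucocorticoid-responsive genes below. MAPK7, which encodes ERK5, the kinase upstream of KLF2 and KLF4, fell from 67.4 ± 3.73 to 26.6 ± 2.13 CPM (-1.31, adjusted p = 7.26e-11). Its activating kinase MAP2K5 fell by 0.92 (adjusted p = 1.02e-06), and of the MEF2 factors that act below ERK5, MEF2C rose from 2.09 ± 0.752 to 12.9 ± 1.23 CPM (2.20, adjusted p = 8.16e-09), MEF2D fell by 0.71 (adjusted p = 8.27e-09) and MEF2A did not pass (0.06, adjusted p = 0.354). In the TGF-β pathway, which induces KLF10 and KLF11, SMAD2 fell from 303 ± 8.38 to 181 ± 3.14 CPM (-0.74, adjusted p = 3.13e-11) and SMAD4 fell by 0.61 (adjusted p = 8.63e-10, and -0.36 after rescaling to the same total), whereas SMAD3 rose from 33.5 ± 0.371 to 58.1 ± 0.974 CPM (0.77, adjusted p = 1.07e-09). MLXIP, which encodes the glucose sensor MondoA, fell from 60.0 ± 0.870 to 35.5 ± 4.00 CPM (-0.75, adjusted p = 9.37e-08), and MLXIPL, which encodes ChREBP, did not exceed 0.112 CPM. The receptor genes NR3C1 (glucocorticoid, -0.20, adjusted p = 1.25e-04) and THRA (thyroid hormone, -0.20, adjusted p = 0.017) fell. TGFBR1 rose (0.27, adjusted p = 1.70e-04) and TGFBR2 fell (-0.20, adjusted p = 4.14e-05). Rescaling to the same total moved the median of all genes by 0.19, about the size of the falls of NR3C1, THRA and TGFBR2. Their direction, and with it the count of 9 lower genes, may therefore rest on the scaling. FOXO3 rose (0.73, adjusted p = 1.1e-09) and FOXO1 did not pass (-0.30, adjusted p = 0.0688). The part of these genes in the KLF values was not tested. All genes of this list are thus named, those other than SMAD2, MAPK7, SMAD4 and SMAD3 after their values were seen. Of 6 glucocorticoid-responsive genes, 4 were tested, with TSC22D3 (-0.77, adjusted p = 2.61e-07) and DUSP1 (-0.83, adjusted p = 5.72e-09) lower and SGK1 higher (0.40, adjusted p = 4.90e-07, and 0.64 after rescaling to the same total), a list median of -0.30, and FKBP5 not passing (0.16, adjusted p = 0.270). ZBTB16 was listed at 0 and PER1 was not analysed here.

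Of 16 genes described elsewhere as KLF targets, 10 were tested, 2 rose, 6 fell and 2 did not pass (median -0.35). The shares over all genes were 35.7% higher and 37.2% lower. The galectin gene LGALS3 fell from 487 ± 12.3 to 98.0 ± 1.97 CPM (-2.30, adjusted p = 2.81e-16), and TAGLN, a smooth muscle gene that KLF4 represses in muscle, fell from 988 ± 50.03 to 378 ± 35.4 CPM (-1.39, adjusted p = 7.39e-12). CCND1, the cyclin gene that KLF5 activates and KLF4 represses in epithelia, rose from 373 ± 8.61 to 687 ± 11.2 CPM (0.88, adjusted p = 1.74e-12), and the urokinase gene PLAU rose from 46.1 ± 5.37 to 102 ± 4.62 CPM (1.14, adjusted p = 9.36e-10). CDKN1A, a cell cycle inhibitor that KLF4 and KLF6 activate, was at 127 ± 7.72 and 124 ± 10.4 CPM and did not pass (-0.03, adjusted p = 0.617). Rescaling to the same total moved the median of all genes by 0.19, so this flat result may rest on the scaling. NOS3, S1PR1, FGFBP1, MAOA and CCL5 stayed under the filter.

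Immediate early genes, the class to which several KLF genes belong, were mixed. FOS and EGR3 passed the filter only through the high-glucose group, which fixes their direction. Of the other 12 tested, 6 rose, 5 fell and 1 did not pass (median 0.26, against 0.86 with FOS and EGR3). Among all genes tested, 35.7% rose and 37.2% fell. MYC fell from 297 ± 10.4 to 51.5 ± 2.56 CPM (-2.51, adjusted p = 1.40e-15) and the stress factor ATF3 from 97.9 ± 1.76 to 20.3 ± 0.979 CPM (-2.22, adjusted p = 2.34e-14). The AP-1 genes FOSL1 (1.20, adjusted p = 2.45e-13) and JUN (1.96, adjusted p = 8.00e-13) rose.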

How the data were processed

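RNA-Seq of Hs578T cells was measured in 8 libraries, 4 at low and 4 at high glucose, grouped by the treatment label. The authors deposited 1 table of normalized signal per gene. According to the submitters' processing notes the build was hg38 and edgeR was used, and the study's methods describe CPM with TMM factors, so the signal was taken as such CPM. The methods describe Tophat and hg19 for other samples of the study. Since the notes on these 8 libraries name hg38, their aligner and counting program were taken as not stated. Only 71.3% to 73.7% of values below 50 reads were whole multiples of the value of 1 read, within 0.005 read, so no count model was used, and depth was estimated from the most frequent positive value. This is an assumption about how the deposited signal was made.

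Genes had to reach 0.5 CPM in 2 or more libraries, and log2(CPM + 1) was compared, high minus low glucose, with limma 3.58.1 (R 4.3.3, variance trend, empirical Bayes, Benjamini-Hochberg FDR 0.05 over all genes tested), checked on simulated data. Fold changes on this scale understate changes of low genes. Differences between related members used a 2-sided exact permutation test over libraries (scipy 1.17.1), adjusted over 4 pairs. Lengths are those of MANE Select transcripts (GENCODE v44), and gene positions and promoter windows are from RefSeq (GRCh38.p14). A RefSeq window runs past the start, and was used where its last 50 bases matched the first bases of that transcript (7 of 10 members). Only the 250 bases before the start were printed and searched. The members, pairs and lists were chosen with earlier results of these data known, and the motifs after the windows were seen. Genes named are all 10 members and, from each of the 8 lists, up to 4 called genes by smallest p. Additions are stated, and genes that did not pass (SP6, CTBP2, HDAC2, HDAC3, CDKN1A, FKBP5) or were not tested were named after their values were seen. Marker lists (6) are given as sums.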

Additional observations from a re-analysis of the deposited data

Results flagged for a closer look

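Among 90 groups of 4 libraries tested (41 genes and 4 pair differences, each in both groups), 5 had 1 library farther from the others than Dixon's 95% critical value allows, and chance flags about 1 in 20 groups. Low-glucose replicate 1 was the high value for KLF9 (44.5 CPM, with the other 3 at 37.9 to 39.0), for the KLF9 minus KLF13 difference (-0.95, with the other 3 at -1.26 to -1.21) and for KLF17 (0.111 CPM, which is 1 estimated count, with the other 3 at 0). High-glucose replicate 4 was the high value for the KLF6 minus KLF7 difference (2.89, with the other 3 at 2.54 to 2.59). High-glucose replicate 1 was the high value for LGALS3 (100.9 CPM around a mean of 98.0).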

How the results depend on the processing

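The 9 calls among the KLF members kept their direction and their side of the threshold under all alternatives run: pseudocounts of 0.1 and 5 CPM, no filter and a filter of 1 CPM in 4 libraries, rescaling to the same total, median-of-ratios and quantile scaling, limma without a variance trend, voom on estimated counts, the replicate block and leaving out each library. Over these, adjusted p ran from 1.16e-07 to 0.0175 for KLF6, the weakest, and from 4.19e-05 to 0.00205 for KLF2. KLF13 reversed to 0.13 with libraries rescaled to the same total. The number of genes called ran from 10534 to 11728. Correlations of deviations ran from -0.03 to 0.11 between same-numbered libraries and from -0.15 to 0.08 between others. The highest was between same-numbered libraries, and values this small cannot settle whether replicate numbers pair the libraries. With the replicate block 11494 genes were called, and 9 members. The pair shifts with the block were 0.86 for KLF2 and KLF4, 0.93 for KLF6 and KLF7 and 1.52 for KLF10 and KLF11, where 4 sign-flipped differences cannot go below an exact p of 0.125. Leaving out 1 library, no pair could pass (3 against 4 libraries cannot go below an exact p of 0.0571), and the shifts were 0.76 to 0.97, 0.85 to 0.96 and 1.48 to 1.59. At this depth KLF2, KLF15 and KLF17 are limited by counting. In low glucose the replicate spread of KLF3, KLF4, KLF5, KLF6 and KLF10 also lay below counting error (KLF4 2.35% against 3.28%). That of KLF7 equalled it, and that of KLF9, KLF11 and KLF13 lay above it. In high glucose only KLF3 lay below it (2.52% against 3.45%).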
